A study of Mus musculus with 18 samples.

Results

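The genes described here are ligands and transcriptional targets of bone morphogenetic protein (BMP) signalling: the ligand genes Bmp2 and Bmp4, the 4 Id genes (Id1 to Id4), the inhibitory Smad genes Smad6 and Smad7, and the homeobox genes Msx1 and Msx2. They were chosen by name, and 9 of the 10 had a probe set (a group of array probes read as 1 value) assigned to their symbol alone, out of 22180 such genes. Msx1 had none and is given separately. Thalidomide (THD) is a sedative known as a human teratogen. The study followed mouse embryonic stem cells of strain C57BL/6 that were leaving pluripotency as embryoid bodies, free-floating aggregates, with or without this drug.

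Exposed cultures received 0.25 mM THD from day 3 of the embryoid body stage, and RNA was taken after 24, 48 or 72 h. For the controls the labels differ: the treatment protocol names 0.25% DMSO, the vehicle, the series description calls them unexposed, and their source names count the hours from embryoid body formation. They were set against the exposed arrays labelled with the same hours, a match which the labels do not settle. All 6 groups came from stem cells kept, before differentiation, in a medium with leukemia inhibitory factor, BMP-4 and an inhibitor of glycogen synthase kinase, so BMP ligand was part of every culture's history. Each group had 3 arrays, described as biological replicates; the labels do not say whether these were separate cultures, so p-values measure the spread between these samples, which may in part be technical. At 48 and 72 h every control title carries a re-analysis tag and no THD title does, and exposure cannot be told apart from that tag there. At 24 h both groups carry the tag. Under THD, then, each change from 24 h to a later time coincides with a change of tag, which the control course lacks. Changes of the exposure effect from 24 h cannot be told apart from the tag either.

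BMP ligands bind pairs of serine/threonine kinase receptors, which phosphorylate the signal-transducing Smads (Smad1, Smad5 and Smad9); these join Smad4 and enter the nucleus. Their best-known direct targets are the Id genes, whose proteins bind E proteins and keep them off DNA, and Smad6 and Smad7, whose proteins inhibit the receptors and so close a negative feedback loop. In the early mouse embryo Bmp4 is needed for mesoderm to form, Bmp2 for heart and amnion development, and in stem cells BMP4 acting through Id genes helps to hold off neural differentiation.

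The promoters of 3 members are shown because Id3 fell at both early exposure times, Id2 rose most over time, and Bmp4 is the ligand against which the array-to-array deviations of the other members are given. They are the 250 bases before each gene's start in RefSeq, build GRCm38.p6, 5′ to 3′ on the gene's strand. Capitals mark matches to GGCGCC, a GC-rich Smad-binding motif, to GTCTG or its reverse complement, a Smad-binding element, and to CACGTG, an E-box.
Id3, chr4:136143572-136143821, plus strand: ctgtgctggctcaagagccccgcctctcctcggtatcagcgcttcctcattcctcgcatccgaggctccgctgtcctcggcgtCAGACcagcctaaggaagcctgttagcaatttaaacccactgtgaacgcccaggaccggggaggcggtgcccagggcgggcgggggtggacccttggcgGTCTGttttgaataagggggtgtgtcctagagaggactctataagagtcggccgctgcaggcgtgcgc
Id2, chr12:25096093-25096342, minus strand: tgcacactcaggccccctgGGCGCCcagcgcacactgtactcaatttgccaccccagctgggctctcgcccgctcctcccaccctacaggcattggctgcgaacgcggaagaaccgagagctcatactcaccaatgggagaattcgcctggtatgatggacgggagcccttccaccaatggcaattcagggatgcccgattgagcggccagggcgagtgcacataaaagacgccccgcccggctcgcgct
Bmp4, chr14:46390670-46390919, minus strand: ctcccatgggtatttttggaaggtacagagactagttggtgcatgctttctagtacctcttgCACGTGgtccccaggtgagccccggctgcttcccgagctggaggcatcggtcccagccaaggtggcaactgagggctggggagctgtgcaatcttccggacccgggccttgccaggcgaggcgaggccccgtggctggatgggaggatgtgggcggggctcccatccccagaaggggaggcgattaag
The Id3 window holds 2 GTCTG matches, at positions -167 to -163 and -68 to -64 from the start, and no other of the 7 members with a window holds one. GTCTG stands in 42.2% of 32851 mouse promoter windows of this length, searched on both strands. GGCGCC occurs in Id2 and Id4 and in 9.59% of all windows, and CACGTG in Bmp4 and in 6.02%. The wider E-box pattern CANNTG, which includes CACGTG, matched in 4 members (Bmp4, Id2, Msx1 and Msx2) and in 66.2% of all windows. The joint pattern of GGCGCC, any 5 letters and GTCT was in none of the 7 and in 0.07% of all windows. In the same build the ligand genes lie at chr2:133552159-133562896 (Bmp2) and chr14:46383525-46390669 (Bmp4), and the Id genes at chr2:152736251-152737410 (Id1), chr12:25093799-25096092 (Id2), chr4:136143822-136145392 (Id3) and chr13:48261116-48266028 (Id4). Smad6 lies at chr9:63953076-64022085, Msx1 at chr5:37820491-37824585 and Msx2 at chr13:53466881-53472780. The motif matches describe letters in a window and were not tested against the array values.

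The deposited values are log2 signals, so a difference of 1 is a doubling. Arrays of 1 group correlated at 0.992 to 0.9959 over the 22180 genes, and array medians over all probe sets ran from 5.367 to 5.462. All 9 measured members had a mean signal at or above the median of all genes. The labelled cell type is embryonic stem cell; over the 7 pluripotency markers (among them Pou5f1, Nanog and Sox2) the log2 of the summed signal was 11.13 to 11.32 in THD and 11.67 to 11.85 in control embryoid bodies at 24 h, and 9.91 to 10.39 in THD and 9.76 to 9.94 in control at 72 h. Tdgf1, at a mean of 10.46 under THD and 11.20 in control, had the largest part in the 24 h sum. The median difference of the 7 at 24 h was 0.08, and 4 of them (Sox2, Klf4, Zfp42 and Esrrb) had a higher mean under THD, none past the test. From 24 to 72 h in control Nanog and Pou5f1 fell by 4.31 and 1.08, and Sox2, which neural cells also express, rose by 1.03. Being bulk RNA, the values cannot tell fewer cells of a type from less RNA per cell.

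Most of these genes changed more over time than with exposure. Between 24 and 48 h Id2 gained 1.85 ± 0.09 log2 units under THD and 1.87 ± 0.09 in control (SE of the model), and Bmp4 gained 1.72 ± 0.16 under THD and 1.67 ± 0.16 in control. Of the 9 members, 6 rose under THD, where 5.72% of all genes rose, and all 9 rose in control, where 6.93% did (limma, 2-sided, Benjamini-Hochberg adjusted p under 0.05 over all genes). The 3 that passed in control and not under THD were Id4, which gained 0.30 under THD (adjusted p = 0.2) and 0.51 in control (0.0162), Smad7, with 0.34 under THD (0.0896) and 0.50 in control (0.00971), and Bmp2, with 0.39 under THD (0.0758) and 0.61 in control (0.00459). With only genes whose signal reached the median, Bmp2 (0.0311) and Smad7 (0.0379) passed under THD too, and Bmp2 did with limma's trend and robust options (0.0389). With only the arrays compared the Msx2 gain under THD did not pass (0.0746). No difference between the gains of the 2 treatments passed the test, as given further on. In control, the Id4 call was lost without replicate 1 of 24 h (gain of 0.42), replicate 3 of 24 h (0.49) or replicate 3 of 48 h (0.48), and the Smad7 call without replicate 3 of 24 h (0.41).

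After 48 h the members parted. Id2 went on rising, by 0.54 ± 0.09 log2 units under THD (adjusted p = 0.000993) and 0.65 ± 0.09 in control (0.000146). Msx2 fell by 0.73 ± 0.14 under THD (0.00406) and by 0.75 ± 0.14 in control (0.00357), and so was back near its 24 h level in both. Id3 rose by 0.48 ± 0.08 under THD (0.00187), while its change in control was 0.09 ± 0.08 (0.613). In total, 3 of 9 members changed under THD, where 10.2% of all genes changed in either direction, and 2 of 9 in control, where 6.53% did. Bmp2 changed by -0.10 ± 0.13 under THD (0.686) and by -0.41 ± 0.13 in control (0.076). The control change passed in 4 of 8 alternatives (0.0303 at the lowest) and in 0 of 6 fits that left out an array. From 24 to 72 h 6 of 9 members rose under THD and these and Smad7 in control. Id2 rose by 2.38 under THD and 2.52 in control, Bmp4 by 1.26 under THD and 1.36 in control, and Id1 by 1.21 under THD and 1.19 in control. Id3 gained 1.34 under THD and 0.89 in control, Smad6 0.71 under THD and 1.02 in control, and Id4 0.61 under THD and 0.68 in control. Smad7 changed by -0.01 under THD (adjusted p = 0.984) and rose by 0.62 in control (0.000911). Over this span 14.4% of all genes rose under THD and 13.1% in control. The span coincides with a change of the re-analysis tag under THD and not in control.

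**Figure D1:**
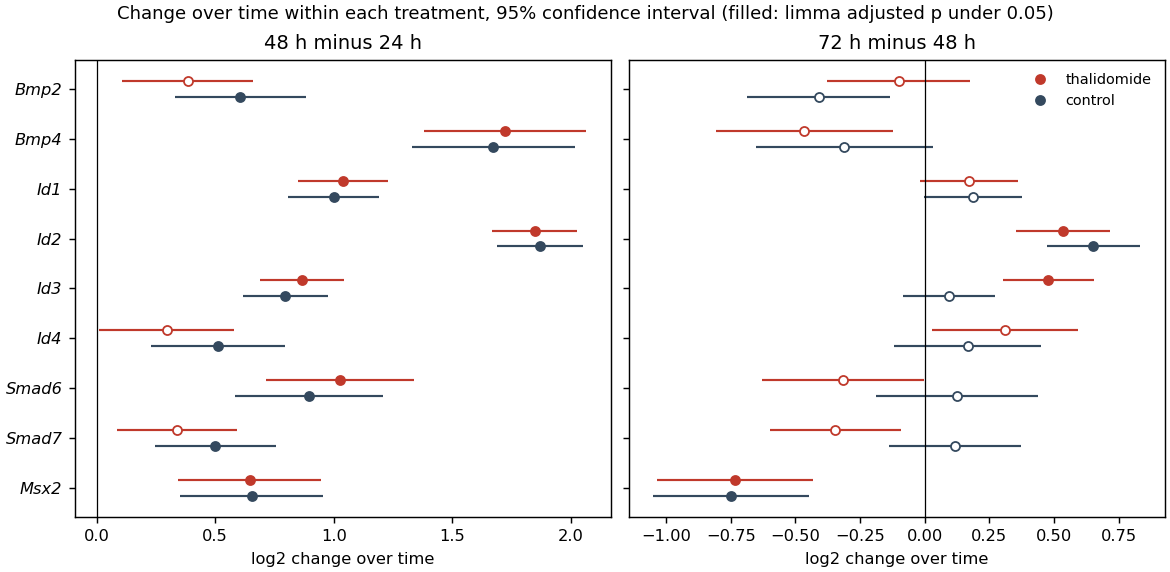
Change over time of the 9 measured genes, on the log2 scale: 48 h minus 24 h at left and 72 h minus 48 h at right, THD above control for each gene, with 95% confidence intervals. Filled points passed limma's test; Id2 rose in both intervals and both treatments, and Msx2 rose and then fell.

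Few of these genes were lower under THD past the test, and none was called higher. At 48 and 72 h exposure cannot be told apart from the re-analysis tag. At 24 h Id3 fell, 1 of the 9 members, where 6.86% of all genes were called in either direction. At 48 h Id3 and Bmp2 fell, 2 of 9, where 6.08% of all genes were called. At 72 h no member passed, and 2 genes in all did, or 0.00902%; limma was the only tool run. At an unadjusted p under 0.05 there were 3 of 9 members at 24 h, 3 at 48 h and 4 at 72 h (Id1, Smad6, Smad7 and Bmp4), beside 21.2%, 23.3% and 9.12% of all genes. The members' median difference was -0.17 at 24 h, -0.21 at 48 h and -0.18 at 72 h, beside -0.01, 0.01 and 0.00 for all genes, and beside -0.06, -0.06 and -0.02 for genes whose signal reached the median. The 3 THD arrays lay wholly on 1 side of the 3 control arrays in 5 members at 24 h (25.1% of all genes), in 6 at 48 h (29.2%) and in 1 at 72 h (14.8%).

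**Figure D2:**
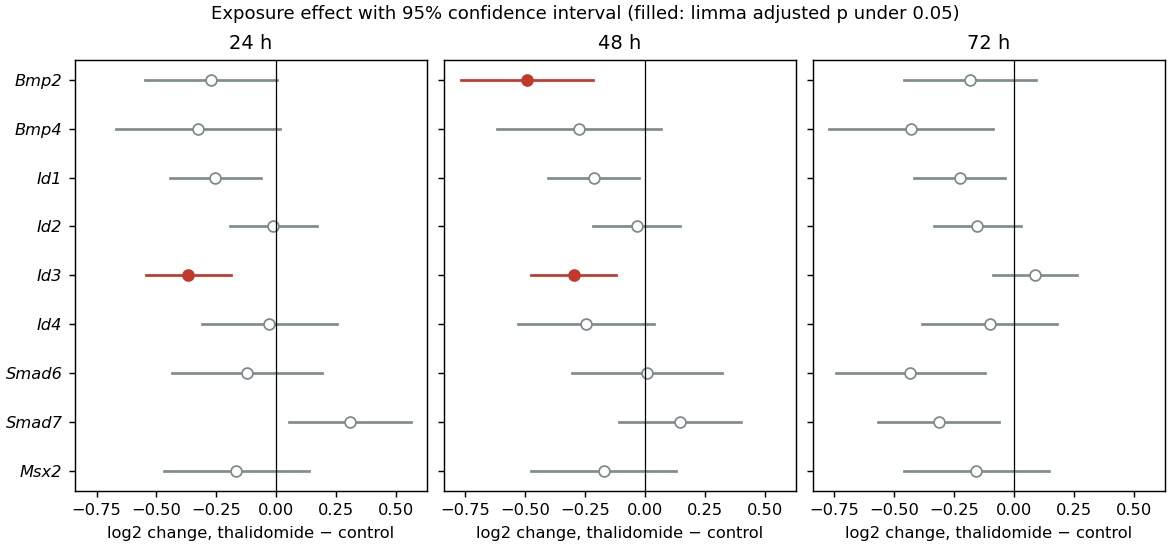
Log2 difference, THD minus control, of the 9 measured genes at 24, 48 and 72 h, with 95% confidence intervals. Filled points passed limma's test: Id3 at 24 h, and Id3 and Bmp2 at 48 h, all below 0.

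Bmp2, a ligand made in early mesoderm and endoderm, was the only ligand member called lower, at 48 h, where the re-analysis tag also differed. At 48 h its log2 signal was 7.17, 6.78 and 6.89 in the 3 THD arrays, against 7.33, 7.52 and 7.48 in the control arrays. Every THD array was below every control array, and the fall of 0.49 ± 0.13 log2 units (95% confidence interval -0.77 to -0.22) made the THD signal 1.41-fold lower (limma adjusted p = 0.0355). At 24 h Bmp2 read 6.61, 6.55 and 6.53 under THD, against 6.86, 6.81 and 6.84 in control. These groups did not overlap either, and the difference of -0.27 ± 0.13 did not pass (adjusted p = 0.242). The SE is pooled over all 6 groups, whose SDs for Bmp2 ran from 0.027 (control, 24 h) to 0.352 (THD, 72 h). At 72 h the THD arrays, at 7.19, 6.87 and 6.48, spread on both sides of the control arrays, at 6.95, 7.05 and 7.09, and the difference was -0.18 ± 0.13 (0.753). Without the third THD array of 72 h it was -0.002.

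Bmp4, the ligand that patterns mesoderm, differed by -0.33 ± 0.16 at 24 h, -0.28 ± 0.16 at 48 h and -0.43 ± 0.16 at 72 h, and passed at none of them (adjusted p = 0.262, 0.323 and 0.401). At 24 h it read 7.37, 7.48 and 6.95 under THD, against 7.78, 7.49 and 7.50 in control. At 48 h it read 9.11, 8.86 and 8.99 under THD, against 9.25, 9.37 and 9.17 in control. At 72 h the signals were 8.65, 8.82 and 8.09 under THD, against 8.81, 8.99 and 9.06 in control. The groups were apart at 24 and 48 h and overlapped at 72 h, and at 24 and 72 h the third THD array was the lowest of all 6. Without that array the difference was -0.17 at 24 h and -0.22 at 72 h.

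Among the Id genes, Id3 was the one that passed the test for exposure. At 24 h its signals were 7.81, 8.04 and 7.97 under THD, against 8.38, 8.29 and 8.24 in control. All 3 THD arrays were lower, and the fall of 0.37 ± 0.08 log2 units (95% interval -0.54 to -0.19) made the THD signal 1.29-fold lower (limma adjusted p = 0.016). At 48 h Id3 read 8.91, 8.71 and 8.79 under THD, against 9.10, 9.17 and 9.03 in control, again with no overlap, and fell by 0.30 ± 0.08 (95% interval -0.48 to -0.12, adjusted p = 0.0459), which made it 1.23-fold lower. At 72 h the THD arrays, at 9.32, 9.32 and 9.21, and the control arrays, at 9.23, 9.32 and 9.04, overlapped, with a difference of 0.09 ± 0.08 (0.844).

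These calls lay close to the threshold. At 24 h the Id3 call was lost without control replicate 1 (a fall of 0.33, adjusted p = 0.0713) or THD replicate 1 (0.30, 0.079). At 48 h the Id3 and Bmp2 calls held in 1 of 6 fits that left out an array, the one without THD replicate 1. Without control replicates 1, 2 or 3 or THD replicates 2 or 3, Id3 fell by 0.30, 0.26, 0.33, 0.25 and 0.29, with adjusted p between 0.0719 and 0.163. Bmp2 in these fits fell by 0.55, 0.45, 0.48, 0.41 and 0.47, with adjusted p between 0.0583 and 0.143. Both directions were the same in each of these fits.

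Id1, a well-known direct BMP target, was lower under THD at every time by about the same amount and did not pass the test. Among the alternatives it passed in 1, at 24 h with only genes at or above the median signal (limma adjusted p = 0.0422). It read 7.10, 7.07 and 6.81 under THD at 24 h, against 7.27, 7.22 and 7.25 in control, and 8.08, 7.96 and 8.05 under THD at 48 h, against 8.26, 8.29 and 8.19 in control. These groups did not overlap at either time. At 72 h the THD arrays, at 8.21, 8.38 and 8.02, overlapped the control arrays, at 8.35, 8.45 and 8.50. The differences were -0.25, -0.21 and -0.23, each ± 0.09, with adjusted p of 0.106, 0.164 and 0.433. Leaving out the third THD array brought the difference to -0.16 at 24 h and -0.14 at 72 h.

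Id2, the Id gene with the steepest climb, showed no exposure difference past the test. It read 7.63, 7.60 and 7.72 under THD at 24 h, against 7.80, 7.58 and 7.60 in control, and 9.59, 9.44 and 9.47 under THD at 48 h, against 9.65, 9.59 and 9.35 in control. The differences of -0.01 and -0.04 had 95% intervals of -0.19 to 0.17 and -0.22 to 0.15. At 72 h it was 10.08, 10.08 and 9.94 under THD, against 10.13, 10.21 and 10.21 in control, a difference of -0.15 ± 0.09 (adjusted p = 0.659). These groups did not overlap, which held for no other member at that time and for 14.8% of all genes. Id4, which in other tissues is best known from neural progenitors, ranged from 5.99 to 6.88 on the THD arrays and from 5.99 to 7.06 on the control arrays over the 3 times. Its largest difference was -0.25 ± 0.13 at 48 h (adjusted p = 0.285), where all THD arrays (6.29 to 6.62) were below the control arrays (6.65 to 6.74).

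Neither feedback inhibitor passed the test for exposure at any time. Smad7, whose protein also inhibits signals of transforming growth factor beta, read 6.27, 5.99 and 6.16 under THD at 24 h, against 5.98, 5.87 and 5.64 in control. The THD arrays were all higher, by 0.31 ± 0.12 (95% interval 0.05 to 0.56), which did not pass (adjusted p = 0.143). At 48 h Smad7 read 6.60, 6.34 and 6.50 under THD, against 6.38, 6.37 and 6.24 in control, and the groups overlapped (0.15 ± 0.12, 0.491). At 72 h it read 6.26, 6.27 and 5.87 under THD, against 6.27, 6.55 and 6.52 in control. The difference there was -0.31 ± 0.12 (0.409), and -0.18 without the third THD array.

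Smad6, which acts mainly on BMP receptors, read 6.74, 6.36 and 6.35 under THD at 24 h, against 6.72, 6.49 and 6.61 in control, and 7.64, 7.40 and 7.49 under THD at 48 h, against 7.56, 7.60 and 7.35 in control. The groups overlapped at both times (differences of -0.12 and 0.01, each ± 0.15). At 72 h Smad6 read 7.29, 7.47 and 6.82 under THD, against 7.42, 7.71 and 7.75 in control, a difference of -0.43 ± 0.15 (adjusted p = 0.345) that was -0.25 without the third THD array.

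Msx2, a homeobox repressor of limb, skull and heart development, read 7.22, 7.14 and 6.93 under THD at 48 h, against 7.25, 7.33 and 7.24 in control. The THD arrays were all lower, by 0.17 ± 0.14 on average, which did not pass (adjusted p = 0.497). At 24 h it ranged from 6.02 to 6.70 under THD, against 6.41 to 6.78 in control, and at 72 h from 6.27 to 6.44 under THD, against 6.39 to 6.64 in control. These differences were -0.17 and -0.16, and the one at 24 h was 0.05 without the third THD array. Msx1 was covered by 2 probe sets that the platform annotation assigns to both Msx1 and its antisense RNA Msx1os, so their reads cannot be given to 1 of the 2 genes. The first (17437049) averaged 5.55, 5.70 and 5.21 under THD at 24, 48 and 72 h, against 5.60, 5.51 and 5.30 in control. The second (17447610) averaged 7.21, 7.44 and 7.05 under THD, against 7.42, 7.47 and 7.09 in control. Neither passed for exposure at any time (limma adjusted p from 0.34 to 0.978 over all probe sets). Over time the first changed under THD by -0.49 from 48 to 72 h (0.0188) and by -0.34 from 24 to 72 h (0.0483). In control its changes over these spans were -0.22 (0.413) and -0.30 (0.0809). The second passed in no comparison over time.

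**Figure D3:**
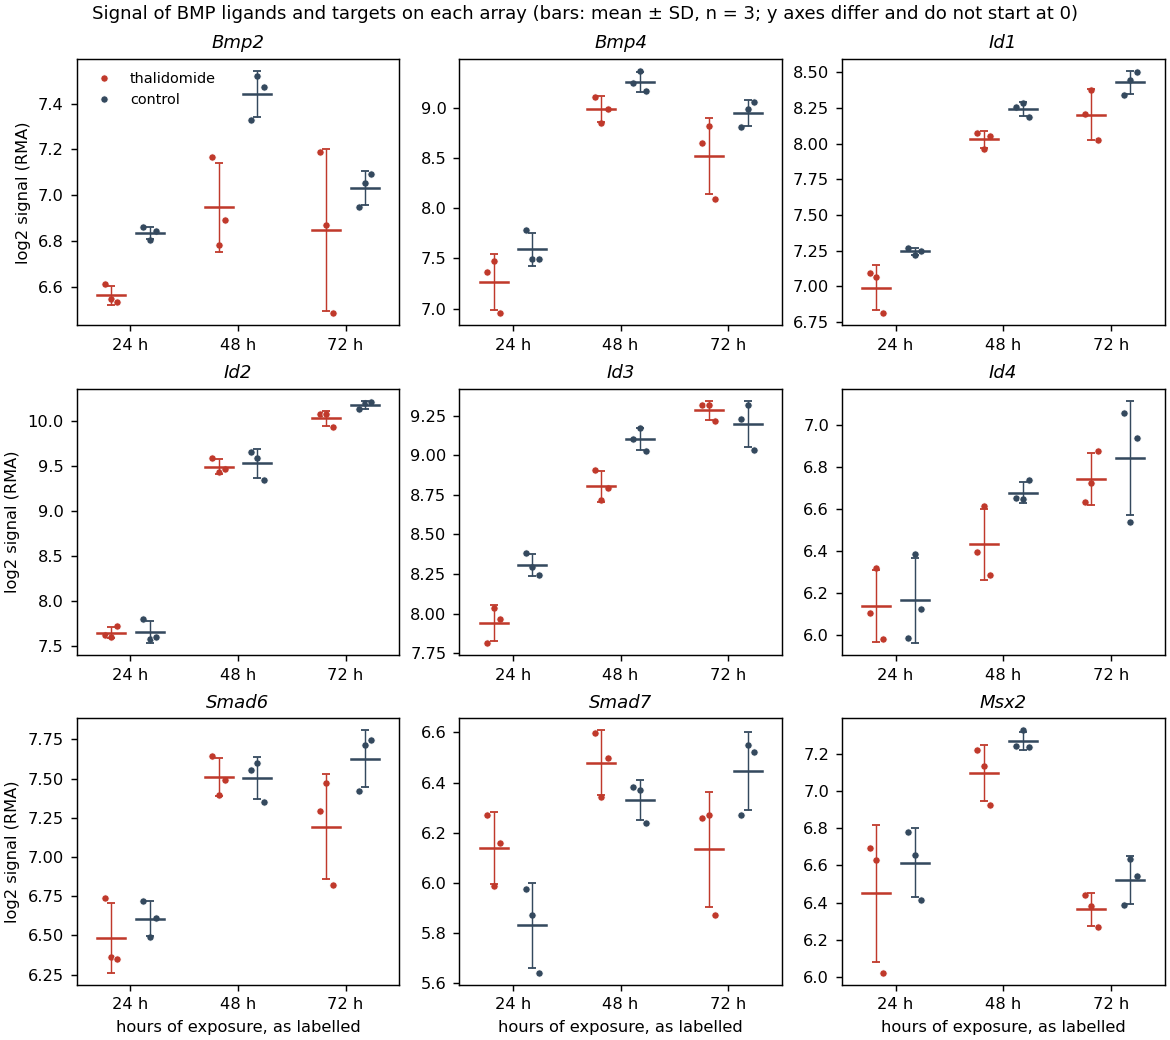
Log2 signal of the 9 measured genes on each of the 18 arrays, THD left of control at 24, 48 and 72 h, with the mean and SD of 3 arrays; the y axes differ between genes and do not start at 0. Id3, Bmp2, Id1 and Bmp4 separate by exposure at 24 and 48 h, Smad7 at 24 h, and Id4 and Msx2 at 48 h. Of all genes 25.1% separate at 24 h, 29.2% at 48 h and 14.8% at 72 h. At 72 h Id2 separates, and the third THD array is low for Bmp4, Smad6 and Smad7.

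Of the 72 h values, those of 1 array stood apart. Averaged over the 9 members, the third THD array of 72 h lay 0.19 log2 units below its group mean (-0.193), while the other 17 arrays lay between -0.12 and 0.11. The same array had the lowest summed signal of the 6 arrays of 72 h for 5 of 8 marker lists. The 7 cardiac markers summed to 11.28, 11.19 and 10.19 on the THD arrays of 72 h, against 11.85 to 11.88 in control. The 6 smooth muscle and mesenchyme markers gave 11.14, 10.94 and 10.16 under THD, against 11.5 to 11.72 in control, and the 5 endothelial markers from 9.16 (the third array) to 10.3 under THD, against 10.48 to 10.71 in control. The 4 endoderm markers gave 11.01, 10.97 and 10.78 under THD, against 10.89 to 11.04 in control, and the 5 trophoblast markers 8.76, 9.02 and 8.51 under THD, against 8.84 to 9.08 in control. On the neural list the third array was the highest: the 4 measured markers gave 8.91, 8.70 and 9.54 under THD, against 8.06 to 8.60 in control. It was the highest on the pluripotency list too, where the THD arrays gave 9.93, 9.91 and 10.39, against 9.76 to 9.94 in control. None of the cardiac, mesenchyme, endothelial or neural markers passed the test at 72 h, although 4, 4, 4 and 3 of them had an unadjusted p under 0.05.

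Markers also moved at the times when Id3 and Bmp2 were called. At 24 h 1 pluripotency marker passed, Tdgf1, which fell by 0.75 (adjusted p = 0.0432). At 48 h the endoderm markers Cxcr4 and Cldn6 fell by 0.42 and 0.41 (0.00451 and 0.0271), 2 of 4 on that list. The cardiac marker Myl7 fell by 1.09 (0.0482), 1 of 7, and the mesenchyme marker Col1a1 rose by 0.44 (0.0107), 1 of 6. Most cardiac markers did not go with Myl7: the median difference of the 7 was 0.06. Their summed signal overlapped, at 9.63 to 9.82 under THD and 9.61 to 9.98 in control. At 24 h the 5 measured markers of the primitive streak summed to 10.71 to 10.95 under THD, against 11.12 to 11.26 in control, and at 48 h the 4 endoderm markers to 10.82 to 10.92 under THD, against 11.1 to 11.26 in control. The part of any of these cell type markers in the members' differences was not tested.

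The exposure effect itself was compared between times. The comparisons that start at 24 h coincide with the change of the re-analysis tag under THD. From 24 to 48 h no member's change of effect passed the test, nor did that of any gene (0% of 22180). Still, 1701 genes (7.67%) had an unadjusted p under 0.05, none of them a member. From 48 to 72 h no member passed, where 0.0947% of all genes did, and 2 members had an unadjusted p under 0.05, as 14% of all genes did: the effect on Id3 rose by 0.39 ± 0.12 (adjusted p = 0.159) and that on Smad7 changed by -0.46 ± 0.17 (0.23). From 24 to 72 h the effect on Id3 changed by 0.45 ± 0.12 (adjusted p = 0.086) and that on Smad7 by -0.62 ± 0.17 (0.0995). These were the only members under an unadjusted p of 0.05 in that comparison, where 14.3% of all genes were under it and 0.496% were called. So neither the call on Id3 at 24 and 48 h and its absence at 72 h, nor the opposite signs of Smad7 at 24 and 72 h, was shown to be a difference between times. From 24 to 72 h, where the tag changes under THD, both passed with only genes at or above the median signal (Id3 at 0.0272, Smad7 at 0.0344). Both also passed there with limma's trend and robust options (0.0184 and 0.0451). From 48 to 72 h neither passed in any alternative or any fit that left out an array. The lowest limma adjusted p there was 0.0538 for Id3 and 0.117 for Smad7.

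Of the 3 exposure times, other genes of the pathway passed the test at 48 h. Of 63 measured genes in 6 lists (other ligands, receptors, signal-transducing Smads with their modulators, antagonists, other transcription factor targets, and the E proteins that Id proteins bind), 0 passed at 24 h, 7 at 48 h and 0 at 72 h, where 6.86%, 6.08% and 0.00902% of all genes passed. At an unadjusted p under 0.05 there were 10, 24 and 16 of the 63, beside 21.2%, 23.3% and 9.12% of all genes, so the lists were under that share at 24 h and over it at 48 and 72 h, with no test of the difference. At 48 h 3 of these were higher under THD: the ligands Gdf7, by 0.40 ± 0.10 log2 units (adjusted p = 0.0218), and Gdf5, by 0.38 ± 0.11 (0.0494), and Fstl3, a secreted binder of activin and related ligands, by 0.38 ± 0.11 (0.047). The 4 that fell were Tob1, a repressor of Smad signalling, by 0.45 ± 0.10 (0.0127), the secreted antagonist Chrdl1 by 0.44 ± 0.12 (0.0454), the secreted modulator Bmper by 0.37 ± 0.10 (0.042) and the type I receptor Acvr1 by 0.25 ± 0.07 (0.0471). None of these 7 passed in every fit that left out an array: Tob1 passed in 5 of 6 (0.0639 at the highest), Gdf7 in 3, Bmper in 2, Gdf5 and Chrdl1 in 1, and Acvr1 and Fstl3 in 0. None passed in every alternative either. Tob1 and Gdf7 passed in 7 of 8, Bmper and Fstl3 in 5 of 8, Acvr1 in 3 of 8, Chrdl1 in 4 of 7 and Gdf5 in 3 of 7. Gdf5 and Chrdl1 had a signal under the median of all genes, so the fit with only genes at or above it left them out. The Gdf5 difference was 0.17 (adjusted p = 0.428) with the mean of its probe sets in place of the brightest. The 15 measured transcription factor targets and the 3 E proteins had no call at 48 h, with medians of 0.06 and -0.06 beside 0.01 for all genes. The 9 measured receptors had a median of -0.07 and the 14 antagonists -0.18.

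Over time, by contrast, 31 of the 63 pathway genes changed in control from 24 to 72 h, 24 up and 7 down, beside 13.1% of all genes up and 14.3% down. Of the 9 receptors 8 rose, those with the smallest p being Acvr2a (0.60 log2 units, adjusted p = 5.14e-05), Bmpr2 (0.40, 0.000111) and Acvrl1 (0.56, 0.000493). Among transcription factor targets 6 of 15 rose. Those with the smallest p were the heart and mesoderm factors Tbx20 (2.18) and Hand2 (1.88) and Gata3 (0.84), while Hand1 (1.33) and Atoh8 (0.92) gained more than Gata3. The antagonists Fst and Cer1 fell by 2.02 and 1.70, while Grem1 rose by 0.90 and the decoy receptor Bambi by 0.53. Bmp5 rose by 1.33 and Bmp7 fell by 0.38. Smad1 and Skil fell by 0.72 and 0.71, and Smad9 rose by 0.47. The E protein genes Tcf4, Tcf3 and Tcf12 rose by 0.68, 0.40 and 0.16, over the span in which the Id genes rose. Of the 23 genes picked by smallest p per list and direction, the 17 just named besides Tcf12 passed in every alternative and every fit that left out an array; Gata3 rose by 0.42 with the mean of its probe sets. Tcf12 and the other 5 (Bmp3, gaining 0.39, Twsg1, 0.25, Smad5, 0.21, Gdf3, at -0.47, and Fstl3, at -0.36) missed the threshold in at least 1 of those fits, Tcf12 in all 6 that left out an array. Under THD over the same span 24 of the 63 rose and 8 fell, beside 14.4% of all genes up and 10.6% down.

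Within groups, several members rose and fell together from array to array. After each group's mean was taken off, the deviations of Id1 followed those of Bmp4 with r = 0.93 and rho = 0.86 over the 18 arrays, and Smad6 with r = 0.81 and rho = 0.75. Without the arrays farthest out for Bmp4 (the third THD arrays of 24 and 72 h) r was 0.86 for Id1 and 0.71 for Smad6 over 16 arrays. The values for Msx2, Bmp2 and Smad7 were 0.68, 0.65 and 0.64 over all 18, for Id2 and Id3 0.45 and 0.33, and for Id4 -0.24. These points share an array, its RNA and its normalization, so the values describe the arrays.

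**Figure D4:**
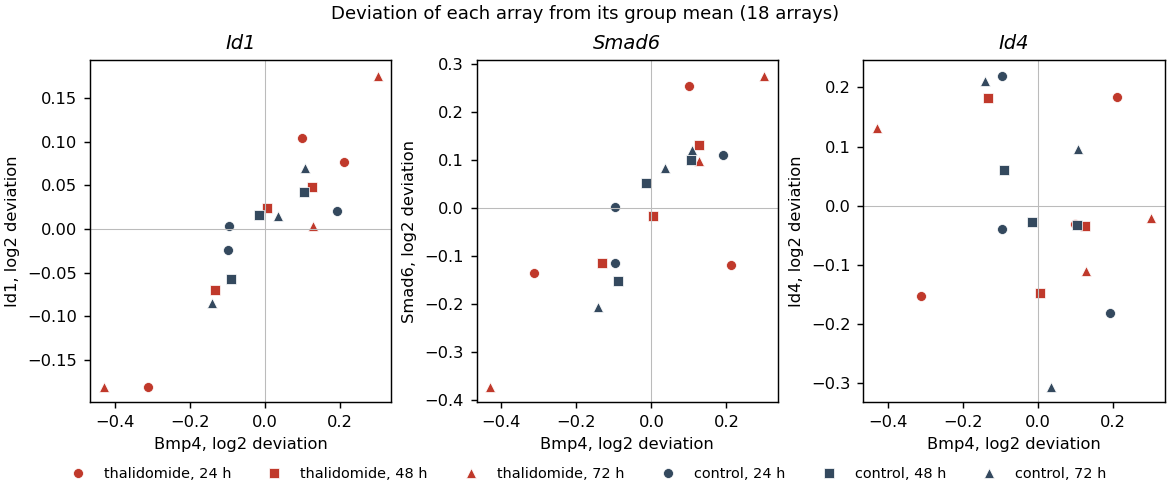
Deviation of each of the 18 arrays from its group mean, Bmp4 on the x axis and Id1, Smad6 or Id4 on the y axis, in log2 units. Id1 and Smad6 rise with Bmp4 (r of 0.93 and 0.81) and Id4 does not (-0.24).

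Over all 18 arrays, time included, the gene whose profile was most like each member's was Rgs5 for Bmp4 (r = 0.994), Igfbp5 for Id2 (0.994), Isl1, a transcription factor of heart progenitors and motor neurons, for Id1 (0.989), Cgnl1 for Smad6 (0.986) and Peli1 for Id3 (0.972). For Msx2 it was Tmem88 (0.935), for Bmp2 Aadat (0.932), for Id4 Arvcf (0.906) and for Smad7 Ccbe1 (0.89). Each is the highest correlation among all other genes, and all share the 6 groups and the same arrays.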

How the data were processed

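RNA of 18 embryoid body samples was hybridised to Affymetrix arrays after biotin labelling with the GeneChip WT PLUS kit, per the labels' protocols. The authors deposited a log2 signal for every probe set on every array. Per the submitters' processing notes these came from RMA, which corrects background, normalizes by quantiles and summarises probes, as run in Affymetrix Expression Console 1.3. The genome's build was not given in the sources used here. The largest gap between the sorted values of 2 arrays was 0.19, and the values were not normalized again. RMA forces arrays onto 1 distribution, so a shift shared by all genes would not be seen.

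Of 41345 probe sets, 23521 had 1 gene symbol in the platform annotation, 1814 had several and 16010 had none. For 1082 genes with over 1 probe set the brightest was kept, which left 22180 genes. Gene IDs of 23328 probe sets matched RefSeq (GRCm38.p6), which gave names and promoter windows.

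Differences were tested in R 4.3.3 with limma 3.58.1 (1 mean per group, all 18 arrays, eBayes, two-sided), with p-values adjusted by the Benjamini-Hochberg method over all genes of a comparison and called under 0.05. Groups left 12 residual degrees of freedom. The spread of a gene was estimated over all groups, so arrays outside a comparison, the outlying ones included, enter its SE and p-value. The test was tried on simulated data. No pairing by replicate number was seen: deviations of same-numbered arrays of different groups correlated with r between -0.16 and 0.127. For arrays of different numbers r was between -0.189 and 0.187. These values cannot show whether same-numbered samples were handled together. The number of arrays, 3 per group, limits the precision. Members and lists were chosen with earlier results of these data known. All members were named; of each list, up to 3 called genes per direction by smallest p, and for likeness the gene with the highest correlation. Alternatives were cyclic loess, a median-signal filter, array weights, trend and robust options, the replicate block, the mean of a gene's probe sets, all probe sets, only the arrays compared, and each array left out.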

Additional observations from a re-analysis of the deposited data

How the results depend on the processing

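No member's called change reversed under the 8 alternatives or the fits that left out 1 array: of these member values 1634 kept their side of the threshold, 24 lost it and 16 gained it. Members called at 24 h numbered 2 with genes at or above the median signal (Id1 at an adjusted p of 0.0422 joined Id3) and 0 with only the arrays compared (Id3 at 0.0959), and 0 to 1 when an array was left out. At 48 h they numbered 0 after cyclic loess, with all probe sets or with only the arrays compared (Id3 at 0.0839, 0.069 and 0.101, Bmp2 at 0.0713, 0.0582 and 0.0699), and 0 to 2 when an array was left out. From 24 to 48 h under THD, 6 members rose, 8 with genes at or above the median signal, 7 with trend and robust options and 5 with only the arrays compared. With only genes at or above the median signal 5 members changed under THD from 48 to 72 h, and the members whose exposure effect changed from 24 to 72 h numbered 2, as they did with trend and robust options. In control from 48 to 72 h, 3 members changed with that filter, array weights, trend and robust options or only the arrays compared, against 2 otherwise. Leaving out an array gave 7 to 9 members rising in control from 24 to 48 h, 3 to 4 changing under THD from 48 to 72 h and 6 to 7 from 24 to 72 h. The replicate block moved no count of members and gave 1297, 1195 and 4 genes called for exposure at 24, 48 and 72 h, against 1521, 1349 and 2 without it; for the effect changes from 48 to 72 h and from 24 to 72 h it gave 5 and 70 genes, against 21 and 110.

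Over all genes, using only the arrays compared left 121, 163 and 0 genes called for exposure at 24, 48 and 72 h, 1141 and 828 under THD from 24 to 48 h and 48 to 72 h, and 2 and 5 for the effect changes from 48 to 72 h and 24 to 72 h; fewer residual degrees of freedom come with that choice. At 72 h 38 genes were called with the median-signal filter, 30 with trend and robust options and 0 with all probe sets. For the effect change from 48 to 72 h the filter gave 365, array weights 89 and trend and robust options 350, and from 24 to 72 h the filter gave 640, trend and robust options 532 and all probe sets 52. With an array left out, genes called for exposure numbered 581 to 1295 at 24 h, 494 to 1280 at 48 h and 0 to 81 at 72 h. They numbered 805 to 1091 in control and 1275 to 1935 under THD from 48 to 72 h, and 2 to 31 and 8 to 119 for the effect changes from 48 to 72 h and from 24 to 72 h. Of the exposure calls 79.2% were lower at 24 h and 69.6% at 48 h, against 65.2% and 60.6% after cyclic loess; at 48 h the filter gave 80.5%. The causes of these shifts were not tested. Signal over background was not used here, and 3 arrays a group limit what could be called.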
